A study of Mus musculus with 10 samples.

Results

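The 52 genes described here encode ligands, receptors, Smad proteins, antagonists and targets of the transforming growth factor beta (TGF-beta), bone morphogenetic protein (BMP) and Nodal pathways in the mouse. They were chosen by name, were summed from the deposited transcripts, and make up 52 of the 45706 genes measured. RNA was sequenced during the reprogramming of embryonic fibroblasts toward pluripotency, in 5 groups of 2 libraries each. All groups had the strain label C57BL/6 x 129. Uninduced mouse embryonic fibroblasts (MEF) carried the OKSM cassette, which encodes Oct4, Klf4, Sox2 and Myc, in the Col1a1 locus and the M2rtTA transactivator in the ROSA26 locus, and grew in MEF medium without doxycycline. Cells at day 3, day 6 and day 9 had the same genotype and grew in embryonic stem cell (ESC) medium with 1 µg/ml doxycycline and 50 µg/ml ascorbic acid. Day 3 cells were unsorted, and those of the later time points were sorted by the surface epitope SSEA1. The ESC group was the single line V6.5 without the cassette, cultured on irradiated feeder cells with 15% serum and the cytokine LIF at 1000 U/ml. MEF and day 3 thus differ in medium, doxycycline and ascorbic acid at once, and day 3 and day 6 differ in sorting as well as time. The replicates are called biological in the series, without naming embryos or cultures, so p-values measure only the spread between these libraries.

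Ligands of this superfamily bind paired type I and type II receptor kinases, which phosphorylate Smad proteins. TGF-beta, activin and Nodal act through Smad2 and Smad3, and BMPs act through Smad1, Smad5 and Smad9, each with Smad4 as the common partner. In fibroblasts TGF-beta is known for driving matrix production and the mesenchymal state. In mouse pluripotent cells BMP is known for maintaining Id genes, and Nodal for its feedback with the Lefty antagonists.

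Libraries held 29585876 to 38275024 estimated reads. Summed over 14 fibroblast markers, the deposited TPM (a level scaled to transcript length) was 12812 to 13341 in MEF, went through 2872 to 2993 at day 3 and 941 to 950 at day 6 to 391 to 397 at day 9, and was 1628 to 1709 in ESC. All 14 were detected in ESC, and Lum was at 0 reads at day 9. The 11 pluripotency markers summed to 50.2 to 54.6 TPM in MEF, 234 to 262 at day 3 and 325 to 359 at day 6. They summed to 358 to 366 at day 9 and 3529 to 3556 in ESC. At day 3, 3 of the 11 were at 1 TPM or more, and at day 9, 10 were. The list includes Pou5f1 (Oct4) and Sox2, which the cassette also encodes, and the part of the cassette in these sums was not tested. Epithelial markers were highest at day 9, at 380 to 400 TPM. Xist was at 0.739 and 0.793 CPM (counts scaled to library size with TMM factors) in MEF and between 930 and 1317 CPM in the induced libraries, while Ddx3y was at 86.4 and 90.6 CPM in MEF and at most 0.176 CPM in them. In ESC, Xist was at 11.3 and 9.0 CPM and Ddx3y at 26.1 and 26.8. The MEF libraries thus held the Y-linked Ddx3y with almost no Xist, and the induced libraries the reverse. They do not represent the same cells before and after induction, and the labels name no sex or embryo. Rises and falls at day 3 are therefore differences between these 2 groups. Every comparison of induced cells with MEF or ESC also compares libraries that differ in sex-linked genes, and their part in the results was not tested. In these bulk samples fewer cells of a type and less RNA per cell cannot be told apart.

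All 52 members passed the low-count filter. A gene was called in a comparison at an edgeR adjusted p under 0.05, over 20165 genes, and a change of at least 2-fold. From MEF to day 3, 10 members rose and 16 fell, against 14.6% and 14.5% of all tested genes (29.1% called in either direction). The median log2 fold change of the members was -0.4, and that of all tested genes 0.08. From day 3 to day 6, 5 rose and 21 fell (9.26% and 10.2% of all genes, 19.5% together), with a median of -0.55 against 0.03. From day 6 to day 9, 3 rose and 5 fell (5.18% and 2.68%, 7.87% together), with a median of -0.28 against 0.0. Between ESC and day 9, 18 were higher and 11 lower in ESC (18.6% and 14.3%, 32.9% together), with a median of 0.24 against 0.0. Between ESC and MEF, 7 were higher and 32 lower in ESC (25.5% and 20.6%, 46.1% together), with a median of -1.45 against 0.1. In each comparison the share of members called in the direction that held more of them was above the share of all genes. The highest mean fell in MEF for 28 members, at day 3 for 12, at day 6 for 1, at day 9 for 3 and in ESC for 8. Across the 5 comparisons 46 members were called at least once and 6 never.

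**Figure D1:**
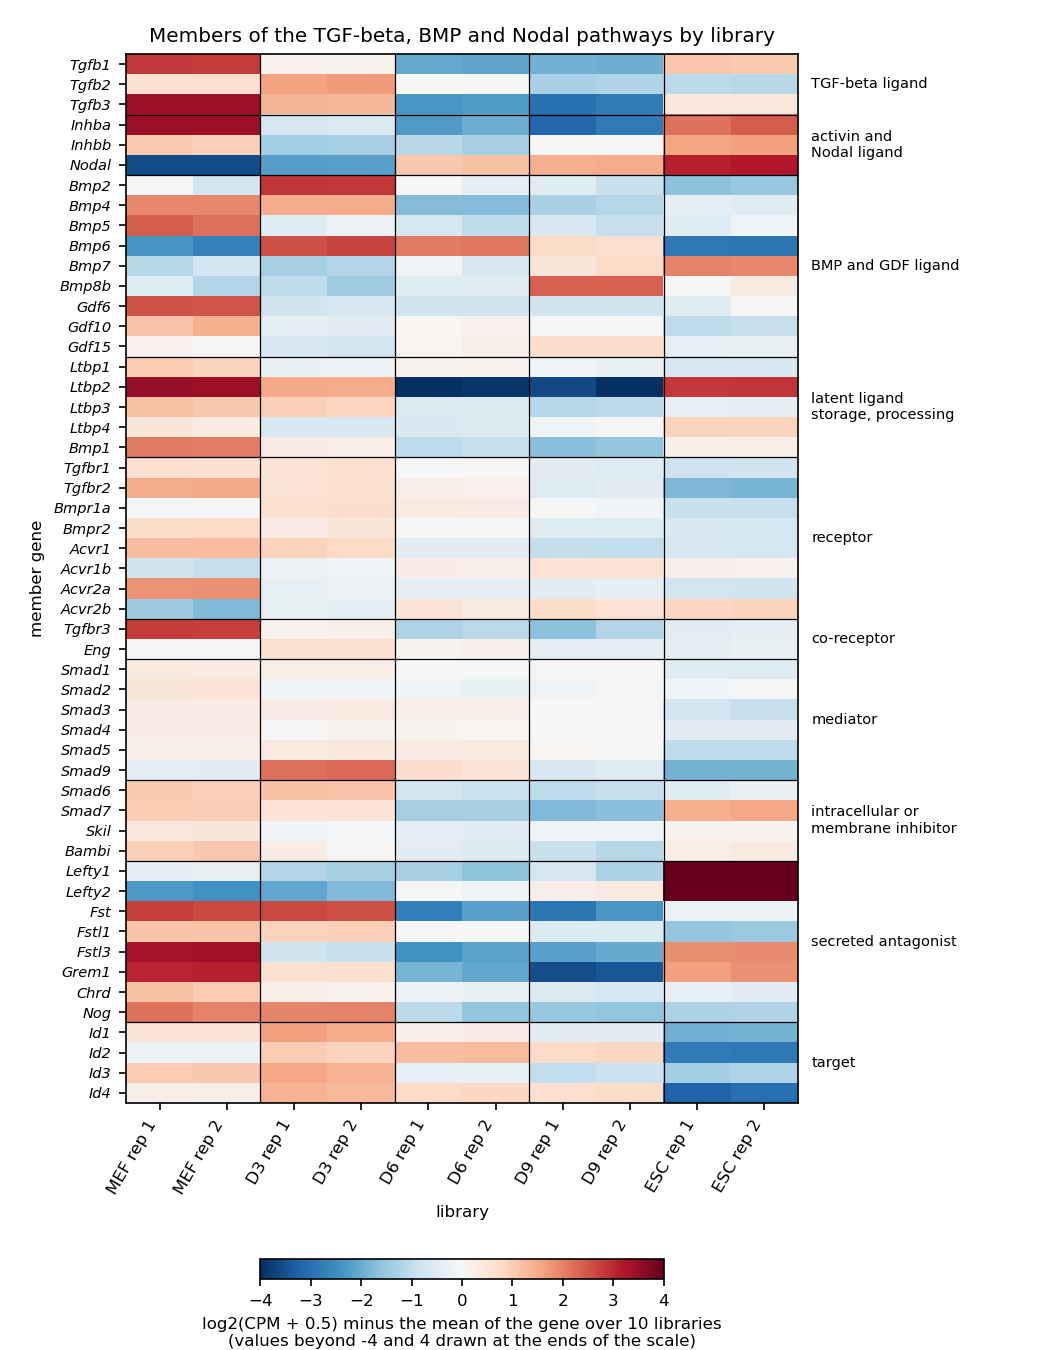
Each row is 1 of the 52 members, grouped by role, and each column 1 of the 10 libraries. Colour gives log2(CPM + 0.5) minus the mean of that gene over the libraries. Replicate columns look alike, 28 of the 52 rows are highest in MEF, and the Id and Smad9 rows are highest at day 3 or day 6.

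The 3 TGF-beta ligand genes took different courses. Tgfb3 (chromosome 12, 86056745 to 86079041, GRCm38) was at 359 and 359 CPM in MEF, 85.4 and 83.0 at day 3, 6.2 and 6.38 at day 6, 3.7 and 4.27 at day 9, and 44.1 and 44.8 in ESC. It fell at day 3 (log2 fold change -2.09, SE 0.04, edgeR adjusted p 2.5e-15) and again at day 6 (-3.74, SE 0.05, edgeR adjusted p 1.4e-15). All induced libraries lay below both MEF libraries, and the day 9 libraries were the lowest of the series. Tgfb1 also fell at both of these steps, from 68.9 and 66.1 CPM in MEF through 10.3 and 10.2 at day 3 to 1.82 and 1.72 at day 6, 2.03 and 2.0 at day 9, and 20.4 and 19.4 in ESC. Its lowest libraries were those of day 6, and its ESC libraries lay above day 3, unlike those of Tgfb3. Day 6 and day 9 did not differ for Tgfb1 by the test (log2 fold change 0.18, edgeR adjusted p 0.48).

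Tgfb2 rose where the other two fell. It was at 48.4 and 49.0 CPM in MEF, 94.5 and 101 at day 3, 30.0 and 31.2 at day 6, 12.2 and 13.0 at day 9, and 14.5 and 14.0 in ESC. The day 3 libraries were above all others. The log2 fold change at day 3 was 1.0 (SE 0.05, edgeR adjusted p 1.5e-10), at the fold minimum. It was 0.96 without day 3 replicate 2, 0.99 without MEF replicate 1, 0.94 when only the groups compared were fitted, 0.91 under a stricter filter and 0.88 by DESeq2, each under the minimum with an adjusted p far below the threshold. By length-scaled TPM, Tgfb3 made up 67.1% of the summed level of the 3 genes in MEF. Tgfb2 made up 80.7% at day 6 and 67.3% at day 9, and the sum itself went from 78.2 TPM in MEF to 7.31 at day 6 and 3.58 at day 9.

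The activin subunits and Nodal each took a different course during induction. Inhba (chromosome 13, 16011851 to 16031621), which encodes the activin A subunit, was at 75.2 and 73.5 CPM in MEF, 3.82 and 4.17 at day 3, 0.941 and 1.27 at day 6, 0.289 and 0.48 at day 9, and 30.7 and 36.3 in ESC. It fell at each step of induction, by 4.22, 1.85 and 1.47 on the log2 scale, with no overlap between neighbouring groups. Inhbb, the activin B subunit, was at 35.1 and 32.8 CPM in MEF, 6.25 and 6.36 at day 3, 7.56 and 6.35 at day 6, 16.6 and 16.4 at day 9, and 50.6 and 53.1 in ESC. It fell at day 3 (log2 fold change -2.43, SE 0.08, edgeR adjusted p 2e-12) and rose at day 9 (1.25, SE 0.08, edgeR adjusted p 4.3e-08). ESC and MEF differed by 0.61 for Inhbb, under the fold minimum.

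Nodal (chromosome 10, 61417972 to 61425338), the ligand that patterns the early embryo, had 0 reads in both MEF libraries, which allows up to 0.101 CPM at a floor of 3 reads per library. It was at 0.808 and 0.828 CPM at day 3, 12.1 and 13.1 at day 6, 15.9 and 16.4 at day 9, and 51.0 and 54.3 in ESC. The groups did not overlap and each was above the one before. Day 3 was at least 8.08-fold and ESC at least 520-fold above the MEF floor. The rise at day 6 had an edgeR log2 difference of 3.94 (SE 0.12, edgeR adjusted p 1.3e-11), the difference at day 9 was 0.36 (edgeR adjusted p 0.0017), under the fold minimum, and ESC was higher than day 9 by 1.7 (SE 0.06, edgeR adjusted p 4.5e-11).

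The antagonists Lefty1 (chromosome 1, 180935022 to 180938400) and Lefty2 (chromosome 1, 180893108 to 180899103), which bind Nodal and its co-receptor, are neighbouring genes with similar sequences. Their coding sequences are 1104 bases each in GENCODE M21 and identical at 91.8% of positions. Of the 50-base words in Lefty1 transcripts, 17.9% also occurred in another gene, and of those in Lefty2 transcripts 12%. All 306 shared words were shared between these genes. Reads from shared stretches could be divided between the genes by the quantification, and both values are uncertain to that extent.

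Lefty2 appeared during induction and Lefty1 did not rise until the ESC group. Lefty2 was at 0.0739 and 0.0305 CPM in MEF (2 and 1 reads), 0.162 and 0.325 at day 3, 2.23 and 2.0 at day 6, 2.89 and 3.13 at day 9, and 46.1 and 47.1 in ESC. The rise from day 3 to day 6 had an edgeR log2 difference of 3.12 (SE 0.25, edgeR adjusted p 8.7e-08), and ESC was higher than day 9 by 3.94 (SE 0.1, edgeR adjusted p 1.9e-13). At day 3 the Lefty2 call rested on 6 and 11 reads, and its edgeR adjusted p was 0.13 without day 3 replicate 2 and 0.1 without MEF replicate 2. Lefty1 was at 4.1 and 4.39 CPM in MEF, 2.13 and 1.89 at day 3, 1.88 and 1.45 at day 6, 3.21 and 2.0 at day 9, and 94.2 and 98.7 in ESC. The ESC libraries stood apart from all 8 others, with a log2 fold change against day 9 of 5.24 (SE 0.11, edgeR adjusted p 2.4e-14). The fall of Lefty1 at day 3 (log2 fold change -1.08) was -1.0 without day 3 replicate 2 and -0.87 with library-size scaling, both under the minimum.

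**Figure D2:**
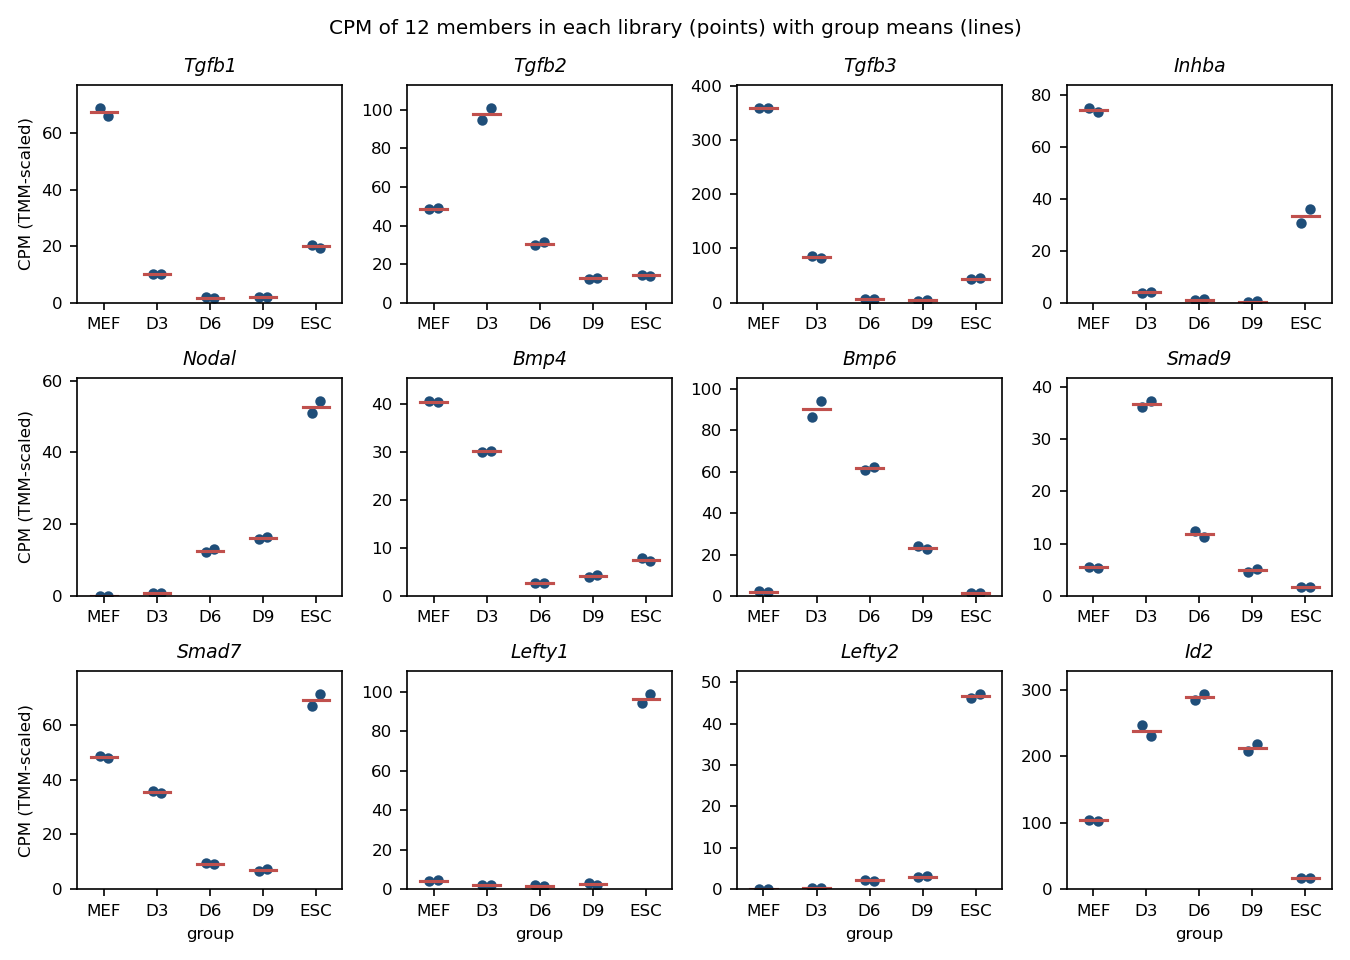
Points are the CPM of single libraries and lines the means of 2 libraries, for 12 members across the 5 groups on linear axes that start at 0. Nodal climbs from 0 CPM in MEF to 51.0 and 54.3 in ESC, Lefty1 is high in ESC alone of the 5 groups, and Bmp6 and Smad9 peak at day 3.

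The BMP ligand genes changed places. Bmp4 (chromosome 14, 46383520 to 46390669), the main BMP of mesenchymal tissue, was at 40.7 and 40.5 CPM in MEF, 30.1 and 30.3 at day 3, 2.76 and 2.78 at day 6, 3.95 and 4.42 at day 9, and 7.87 and 7.26 in ESC. Its fall came at day 6 (log2 fold change -3.44, SE 0.08, edgeR adjusted p 2e-13), and the day 6 libraries were the lowest. Bmp6 (chromosome 13, 38345107 to 38500302) was at 2.33 and 1.77 CPM in MEF, 86.6 and 94.2 at day 3, 60.8 and 62.5 at day 6, 23.9 and 22.7 at day 9, and 1.5 and 1.47 in ESC. It rose at day 3 by 5.48 (SE 0.09, edgeR adjusted p 1.5e-15), fell at day 9 by 1.41 on the log2 scale, and was lower in ESC than at day 9 (log2 fold change -3.97, SE 0.11, edgeR adjusted p 3.2e-13). All 6 induced libraries lay above all MEF and ESC libraries. By TPM, Bmp6 averaged 19.6 at day 3 and 13.2 at day 6, the highest level of the 9 BMP and GDF ligand genes there, and Bmp4 averaged 12.8 in MEF.

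Of the other BMP and GDF ligands, Gdf15, a stress-responsive cytokine, stayed between 5.73 and 16.7 CPM and was called once, lower in ESC than at day 9 (log2 fold change -1.04, SE 0.09, edgeR adjusted p 1.5e-07). This call did not hold by DESeq2 (-0.97), library-size scaling (-0.99) or the stricter filter (-0.99). The remaining 6 were below 2 TPM in every group. Among them Bmp2 was at 1.4 and 0.64 CPM in MEF, 13.5 and 13.3 at day 3, and at or below 1.47 CPM in each later library. Bmp8b was at 9.19 and 9.09 CPM at day 9 and at or below 1.92 CPM elsewhere. Of the 50-base words in Bmp8b, 5.77% occurred in another gene, mainly its paralog Bmp8a, so its level is uncertain. Bmp7 reached 5.45 and 5.29 CPM in ESC from at most 2.07 CPM in the other groups. Bmp5, Gdf6 and Gdf10 were highest in MEF, at 1.74 to 4.88 CPM, and Gdf6 had 0 to 2 reads in each induced library.

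Of the genes that store or process ligands, most were called lower at the first steps, with exceptions at each. The Ltbp genes encode latent TGF-beta binding proteins of the matrix, and Bmp1 encodes a protease that cleaves procollagen and chordin rather than a BMP ligand. At day 3, 4 of these 5 genes fell (not Ltbp3), against 14.5% of all genes, with a median log2 fold change of -1.21. At day 6, 3 fell, against 10.2% of all genes, while Ltbp1 and Ltbp4 had log2 fold changes of 0.37 and 0.04. Ltbp2 (chromosome 12, 84783212 to 84876532) was at 337 and 325 CPM in MEF, 85.5 and 83.8 at day 3, 1.26 and 1.54 at day 6, 1.99 and 1.36 at day 9, and 214 and 217 in ESC. Its fall at day 6 had an edgeR log2 difference of -5.91 (SE 0.09, edgeR adjusted p 1.6e-15). Bmp1 was at 430 and 416 CPM in MEF, 126 and 122 at day 3, 49.5 and 53.0 at day 6, 31.8 and 34.7 at day 9, and 117 and 120 in ESC.

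Ltbp1, Ltbp3 and Ltbp4 moved less. Ltbp1 fell at day 3 (log2 fold change -1.21, SE 0.04, edgeR adjusted p 5.7e-12) from 167 and 157 CPM to 68.1 and 71.2. By limma on log2 TPM this fall was -0.71 with a pseudocount of 1 and -0.75 with 0.1, both under the minimum. Ltbp3 was at 146 and 135 CPM in MEF and 124 and 117 at day 3, then fell to 43.1 and 42.4 at day 6. Ltbp4 was at 110 and 98.7 CPM in MEF, 50.3 and 50.7 at day 3, 50.5 and 53.4 at day 6, 71.1 and 73.4 at day 9, and 147 and 146 in ESC, and its ESC libraries were the highest. The call at day 3 for Ltbp4 (-1.05) was under the minimum without MEF replicate 1 (-0.97) and with library-size scaling (-0.84). Its call between ESC and day 9 (1.01) was under it without day 9 replicate 1 (0.99). By TPM, Ltbp2 made up 54.1% of the summed level of the 4 Ltbp genes in MEF and 0.759% at day 9, where Ltbp4 made up 61.8%.

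Among the 8 receptor genes, calls at each step were too few to differ clearly from the share of all genes. At day 3, 1 rose and 1 fell, so that 2 of 8 were called, against 29.1% of all genes. At day 6, 1 fell, 12.5% against 19.5%, and from day 6 to day 9 none was called, against 7.87%. Between ESC and MEF, in contrast, 2 were higher and 5 lower in ESC, 87.5% called against 46.1% of all genes. The median log2 fold change there was -1.45 against 0.1. Tgfbr2, the type II TGF-beta receptor, was at 211 and 215 CPM in MEF, 110 and 115 at day 3, 87.8 and 84.1 at day 6, 51.4 and 53.9 at day 9, and 21.2 and 20.1 in ESC. Each group was below the one before, and ESC was lower than MEF by an edgeR log2 difference of -3.37 (SE 0.05, edgeR adjusted p 2e-16). Tgfbr1, its type I partner, went from 91.2 and 89.6 CPM in MEF to 84.5 and 89.4 at day 3, 57.9 and 58.7 at day 6, 41.5 and 40.1 at day 9, and 32.2 and 32.3 in ESC. Its day 3 and MEF libraries did not separate by the test (log2 fold change -0.06, edgeR adjusted p 0.24).

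The activin and BMP receptor genes split. Acvr2a, a type II receptor, was at 87.8 and 89.2 CPM in MEF and 19.7 and 20.9 at day 3, an edgeR log2 difference of -2.12 (SE 0.05, edgeR adjusted p 7.1e-14), and stayed between 14.1 and 20.9 CPM from then on. Acvr1, a type I receptor for BMPs, was at 74.0 and 73.9 CPM in MEF and 59.8 and 54.9 at day 3, and fell to 22.8 and 22.9 at day 6 (log2 fold change -1.33). Acvr1b, the type I receptor for activin and Nodal, went the other way without a call at any single step. It was at 18.7 and 17.3 CPM in MEF, 27.8 and 29.3 at day 3, 40.9 and 38.5 at day 6, 49.1 and 49.7 at day 9, and 39.6 and 37.5 in ESC, with an edgeR log2 difference of 1.1 (SE 0.06, edgeR adjusted p 4.5e-10) between ESC and MEF. The related type II gene Acvr2b rose as well, from 1.4 and 1.04 CPM in MEF to 8.84 and 9.13 in ESC. Bmpr1a, the BMP type I receptor, was between 76.8 and 242 CPM and was called in no comparison. Bmpr2 was called only between ESC and MEF (log2 fold change -1.4).

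Of the co-receptors, Tgfbr3 (betaglycan) was at 54.6 and 54.2 CPM in MEF, 8.37 and 8.72 at day 3, and at or below 5.61 CPM in the later groups. Its higher level in ESC than at day 9 (log2 fold change 1.08) was 0.86 without day 9 replicate 1, under the minimum. Eng (endoglin), known from endothelial cells, was called in no comparison and was highest at day 3, at 57.3 and 57.0 CPM. The summed TPM of 5 endothelial markers was 0.808 to 0.909 in MEF and 17.5 to 19.2 at day 3, where Tek accounted for 17.8 and 16.4 TPM, and its part in the level of Eng was not tested.

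Among the Smad genes that carry the signal, 5 of 6 were called at no step of induction. The share called was 16.7% at each step, from Smad9 alone, against 29.1%, 19.5% and 7.87% of all genes. Smad1, Smad2 and Smad4 were called in no comparison. Smad4 ranged from 69.7 to 119 CPM, Smad2 from 35.4 to 61.5 and Smad1 from 17.8 to 32.7. Smad3 was at 69.1 and 68.4 CPM in MEF, 68.2 and 71.2 at day 3, 65.0 and 66.0 at day 6, 54.4 and 53.0 at day 9, and 32.0 and 29.2 in ESC. Smad5 was at 99.7 and 102 CPM in MEF, between 88.3 and 121 during induction, and at 42.5 and 43.3 in ESC. The lower levels in ESC than in MEF (log2 fold changes of -1.17 for Smad3 and -1.23 for Smad5) became -0.83 and -0.89 with library-size scaling, which shifts the median of all genes in that comparison from 0.1 to 0.44.

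Smad9 (chromosome 3, 54755582 to 54801257), a BMP-responsive Smad also known as Smad8, was the exception. It was at 5.61 and 5.4 CPM in MEF, 36.2 and 37.3 at day 3, 12.5 and 11.2 at day 6, 4.66 and 5.08 at day 9, and 1.62 and 1.66 in ESC. It rose at day 3 by 2.74 (SE 0.08, edgeR adjusted p 1.1e-12) and fell at each later step, by 1.63, 1.28 and 1.57 on the log2 scale. By TPM it made up 2.76% of the summed level of Smad1, Smad5 and Smad9 in MEF and 18.5% at day 3, and Smad5 held 53.7% there. The group with the highest mean differed between TPM and CPM for Smad3 (day 6 by TPM, day 3 by CPM), Smad5 and Smad6 (MEF by TPM, day 3 by CPM).

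The inhibitory Smad genes, which are themselves induced by the pathway, fell at day 6. Smad7 was at 48.9 and 48.1 CPM in MEF, 35.9 and 35.1 at day 3, 9.38 and 9.29 at day 6, 6.78 and 7.3 at day 9, and 67.1 and 71.3 in ESC. ESC was higher than day 9 by an edgeR log2 difference of 3.29 (SE 0.06, edgeR adjusted p 4.8e-15). Smad6, which acts on the BMP branch, was at 31.3 and 29.3 CPM in MEF, 34.6 and 34.0 at day 3, 8.85 and 8.11 at day 6, 7.14 and 7.63 at day 9, and 10.5 and 12.2 in ESC. Both fell at day 6, by 1.93 and 2.02 on the log2 scale, and in ESC the Smad7 libraries were above those of every other group whereas those of Smad6 stayed below MEF. Skil (SnoN), a Smad co-repressor, was between 65.4 and 123 CPM and was called in no comparison. Bambi, a pseudoreceptor, was called once, higher in ESC than at day 9 (log2 fold change 1.44).

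**Figure D3:**
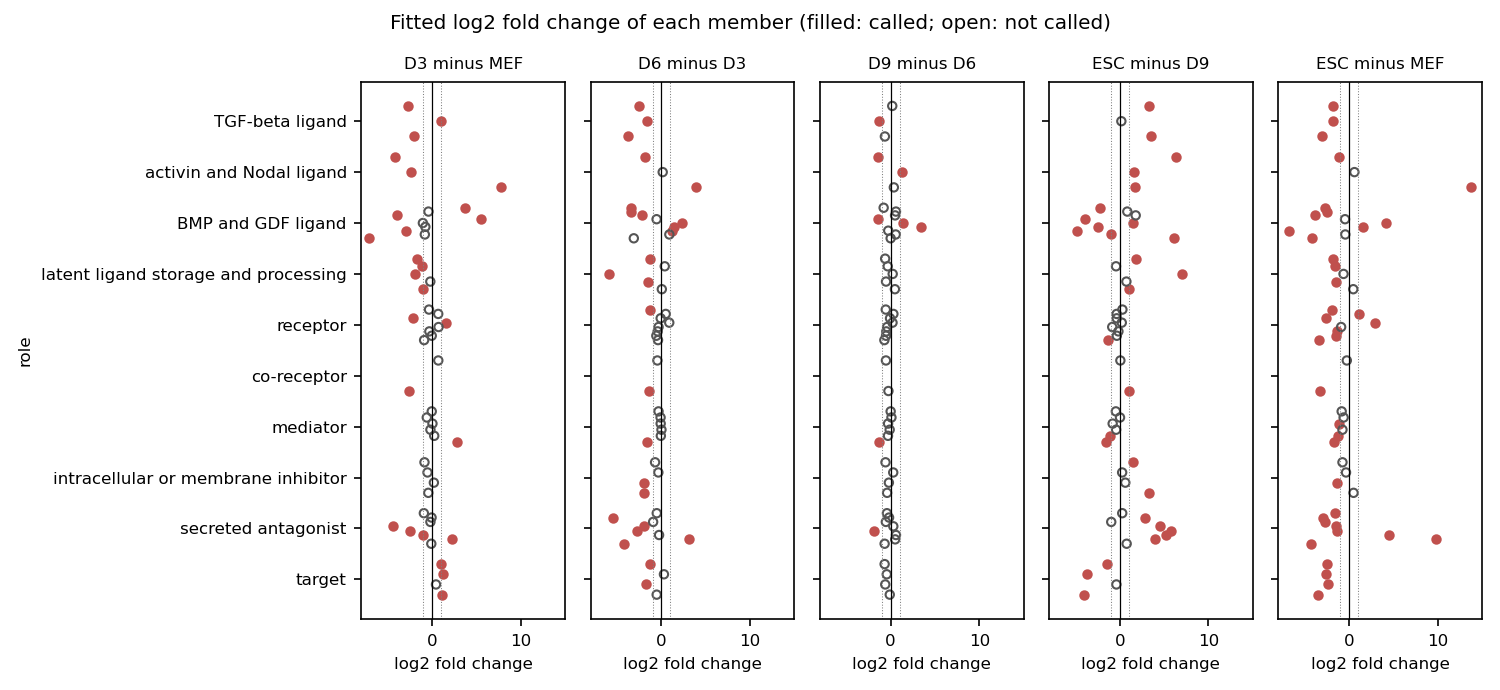
Each point is the fitted log2 fold change of 1 member in 1 of the 5 comparisons, by role. Filled points were called, open points were not, and dotted lines mark the 2-fold minimum. Most receptor and mediator points lie between the dotted lines at the 3 induction steps, where 29.1% or fewer of all tested genes were called. Fitted values for Nodal and Gdf6 against groups with 0 reads depend on the prior count.

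Secreted antagonists other than the Lefty genes were mostly MEF genes. Fstl1, a secreted follistatin-like glycoprotein, was the most abundant member by TPM in every group, averaging 1194 TPM in MEF and 193 in ESC. It stepped down from 2612 and 2663 CPM in MEF to 2260 and 2301 at day 3, 1190 and 1185 at day 6, 823 and 813 at day 9, and 406 and 428 in ESC, and was called between ESC and MEF (log2 fold change -2.66, SE 0.03, edgeR adjusted p 6.6e-17). Grem1 (gremlin), a BMP antagonist, was at 139 and 145 CPM in MEF, 24.9 and 26.2 at day 3, 4.09 and 3.51 at day 6, 0.932 and 1.06 at day 9, and 52.3 and 59.2 in ESC. It fell at each step of induction, with no overlap between neighbouring groups.

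Fst and Fstl3 both bind activin, and fell at different times. Fst (follistatin) was at 64.5 and 59.7 CPM in MEF and 59.8 and 57.1 at day 3, then at 0.941 and 1.63 at day 6, 0.771 and 1.41 at day 9, and 7.72 and 7.9 in ESC. Its fall at day 6 had an edgeR log2 difference of -5.51 (SE 0.14, edgeR adjusted p 2.9e-13), and day 3 and MEF were not separated by the test (edgeR adjusted p 0.37). Fstl3 was at 60.8 and 62.1 CPM in MEF, 2.96 and 2.78 at day 3, 0.617 and 0.877 at day 6, 0.836 and 0.985 at day 9, and 21.3 and 21.9 in ESC. Its main fall was at day 3 (log2 fold change -4.42, SE 0.08, edgeR adjusted p 5.7e-15). Nog (noggin), which binds BMPs, kept 8.26 and 8.45 CPM at day 3 against 9.72 and 8.32 in MEF and was at or below 0.588 CPM afterwards. Chrd (chordin) was at 2.63 to 11.0 CPM and was called only as lower in ESC than in MEF.

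The Id genes encode inhibitors of basic helix-loop-helix factors and are direct targets of BMP-activated Smads. At day 3, 3 of the 4 rose, and in ESC all 4 were lower than in MEF, with a median log2 fold change of -2.55 against 0.1 for all genes. Of all tested genes, 14.6% rose at day 3 and 20.6% were lower in ESC than in MEF. Id1 was at 164 and 163 CPM in MEF, 357 and 317 at day 3, 130 and 140 at day 6, 83.5 and 85.0 at day 9, and 29.5 and 30.2 in ESC. Id2 was at 104 and 103 CPM in MEF, 247 and 230 at day 3, 284 and 293 at day 6, 207 and 218 at day 9, and 17.0 and 16.3 in ESC. The day 9 libraries of Id2 were still above MEF, and the drop to ESC was an edgeR log2 difference of -3.68 (SE 0.05, edgeR adjusted p 3.6e-16). Id4 peaked at day 3 where Id2 peaked at day 6, and was at 37.0 and 36.6 CPM in MEF, 81.9 and 76.7 at day 3, 53.1 and 55.7 at day 6, 49.8 and 51.9 at day 9, and 2.95 and 3.42 in ESC.

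Id3 was the most abundant of the 4 by TPM in every group, at 46.1% or more of their sum. It was at 319 and 328 CPM in MEF, 455 and 412 at day 3, 123 and 130 at day 6, 79.4 and 85.7 at day 9, and 60.6 and 65.6 in ESC. Its rise at day 3 (log2 fold change 0.42) was under the minimum, and it fell at day 6 (log2 fold change -1.78, SE 0.05, edgeR adjusted p 1.8e-12). The day 3 call of Id1 (1.04) was under the minimum without day 3 replicate 1 (0.95), under the stricter filter (0.96), with only the groups compared (0.98) and by DESeq2 (0.92), and DESeq2 also gave 0.98 for Id4. The summed TPM of the 4 genes went from 704 in MEF to 1121 at day 3, then down through 442 and 295 at the later time points to 138 in ESC.

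Promoters of 36 of the 52 members were found in RefSeq (GRCm38.p6), as 300-base windows around a transcript start. They were searched on both strands for GGCGCC, a GC-rich element, and CAGAC, both known to be bound by Smads, and the motifs do not overlap one another in letters. GGCGCC occurred in 14 of the 43 windows of members (32.6%) and in 11.9% of all 32851 windows. Windows of 1 gene can overlap, and by gene the motif occurred in 12 of 36 members (33.3%) and in 13.4% of all genes. The median GC content was 65.3% for members and 52.7% for all. CAGAC occurred in 48.8% and 49.6%. The windows of Id2, Id3, Id4 and Smad9, genes tied to the BMP branch with high levels at day 3, are shown as examples, and capitals mark the motifs found. They lie at chr12:25096043-25096342 on the minus strand for Id2, and on the plus strand at chr4:136143572-136143871 for Id3, chr13:48260866-48261165 for Id4 and chr3:54755332-54755631 for Smad9.
Id2: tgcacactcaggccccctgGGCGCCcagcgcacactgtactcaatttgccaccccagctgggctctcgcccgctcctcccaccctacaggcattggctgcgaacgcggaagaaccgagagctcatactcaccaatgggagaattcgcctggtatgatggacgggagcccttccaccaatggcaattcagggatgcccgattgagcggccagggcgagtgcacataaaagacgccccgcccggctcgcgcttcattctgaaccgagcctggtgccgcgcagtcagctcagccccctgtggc
Id3: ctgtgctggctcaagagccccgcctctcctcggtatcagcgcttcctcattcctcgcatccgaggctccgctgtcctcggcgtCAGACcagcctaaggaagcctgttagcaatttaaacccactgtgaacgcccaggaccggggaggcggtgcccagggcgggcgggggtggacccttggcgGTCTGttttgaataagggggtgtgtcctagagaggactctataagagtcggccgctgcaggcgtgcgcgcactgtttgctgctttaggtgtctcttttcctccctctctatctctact
Id4: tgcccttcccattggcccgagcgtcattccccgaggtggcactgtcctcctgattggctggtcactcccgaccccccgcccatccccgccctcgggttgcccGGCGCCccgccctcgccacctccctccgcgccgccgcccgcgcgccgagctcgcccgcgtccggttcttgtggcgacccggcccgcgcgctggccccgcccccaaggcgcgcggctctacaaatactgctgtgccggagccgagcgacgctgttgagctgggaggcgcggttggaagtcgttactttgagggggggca
Smad9: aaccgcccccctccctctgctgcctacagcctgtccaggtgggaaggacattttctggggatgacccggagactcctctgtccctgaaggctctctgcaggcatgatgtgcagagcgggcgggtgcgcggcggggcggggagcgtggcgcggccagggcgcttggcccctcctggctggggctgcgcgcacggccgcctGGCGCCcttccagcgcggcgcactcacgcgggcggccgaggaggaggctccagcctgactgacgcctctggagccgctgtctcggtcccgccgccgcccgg
Id2, Id4 and Smad9 held GGCGCC once each and no CAGAC, and Id3 held CAGAC at 2 places and no GGCGCC. The examples are a choice and give no rate. Other genes of the BMP branch that were highest at day 3 by CPM, among them Smad5, Smad6, Bmp6 and Bmpr1a, are not shown. Of those named, Bmpr1a held GGCGCC, Smad5 held it in some but not all of its windows, and Smad6 and Bmp6 did not. No window was found for Id1. A match describes letters and not binding.

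Levels in ESC need a further measurement beside them, because the ESC were grown on feeders. The 14 fibroblast markers were at 1.11% to 22.4% of their MEF level in ESC, with a median of 8.62%, and 12 of the 14 were higher in ESC than at day 9. Of the 18 members higher in ESC than at day 9, 9 were lower in ESC than in MEF. Among these 9, Inhba was at 45.0% of its MEF level, Grem1 at 39.3%, Fstl3 at 35.1%, Tgfb1 at 29.5% and Bmp1 at 28.1%, all 5 above the highest fibroblast marker, Vim. Fst, Tgfb3, Tgfbr3 and Gdf6 were at 5.49% to 12.6%, within the marker range. The part of feeder RNA in these values was not tested. The other 9 included Nodal, Lefty1, Lefty2 and Bmp7, which were higher in ESC than in MEF and at day 9, and Ltbp2, which was at 65.2% of its MEF level.

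**Figure D4:**
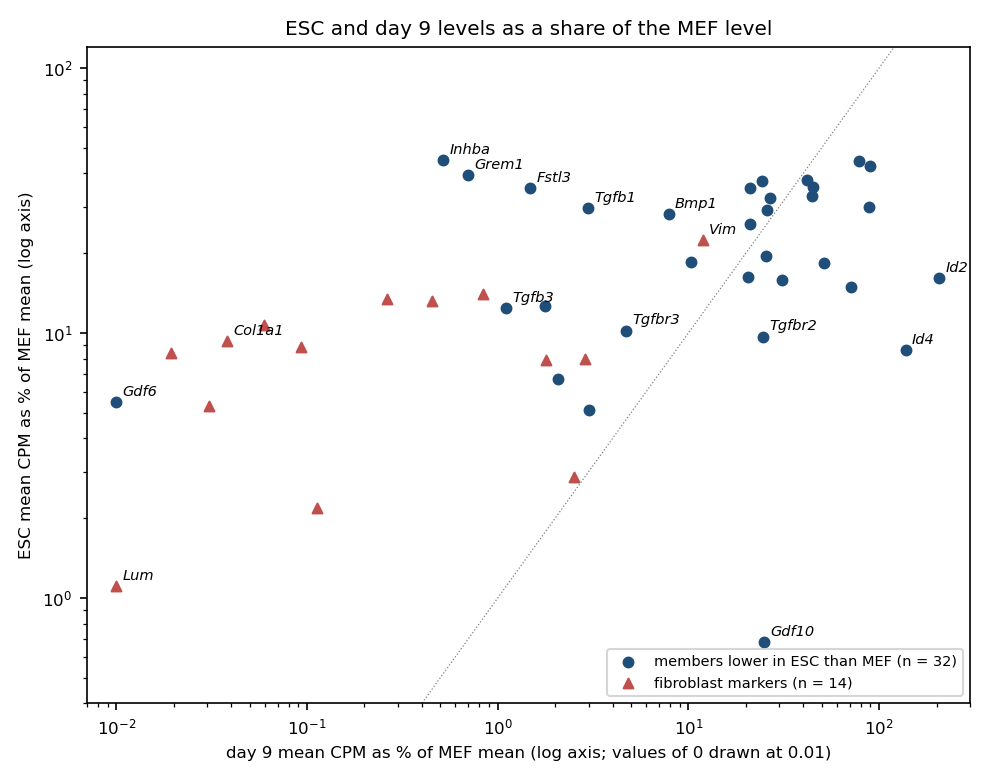
Each point is a gene, with its day 9 level (x) and its ESC level (y) as a percentage of its MEF level, both on log axes. Gdf6 and Lum, at 0 CPM at day 9, are drawn at 0.01 on the x axis. Circles are the 32 members lower in ESC than in MEF and triangles the 14 fibroblast markers, and the dotted line marks equal shares. Inhba, Grem1, Fstl3 and Tgfb1 lie above all fibroblast markers in ESC at day 9 levels of 0.517% to 2.98%.

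At day 9 many members stood outside the range of the end points. Both day 9 libraries were below all MEF and ESC libraries for 24 of the 52 members, against 20.6% of all tested genes, and above them for 6, against 26.3%. The 6 were Acvr1b, Bmp6, Bmp8b, Gdf15, Id2 and Id4. The 24 included all 3 TGF-beta ligands, Inhba and Inhbb, Bmp4, Smad6 and Smad7, and Ltbp2. These counts need only libraries that do not overlap, with no fold minimum. Fibroblast markers were also higher in ESC than at day 9 for 12 of 14 genes, and the ESC were grown on feeders. The part of feeder RNA in the count of 24 was not tested. Of the genes named here, Tgfb2, Bmp4, Smad6 and Acvr1b were not called between ESC and day 9, and the others were. Their log2 fold changes were 0.17, 0.84, 0.62 and -0.36, in that order. Day 9 and MEF were not compared by the test.

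A list of 91 other genes of these pathways, 79 of them tested, was counted in the same way. At day 3, 11 rose and 33 fell, which is 55.7% called against 29.1% of all genes. At day 6, 6 rose and 33 fell (49.4% against 19.5%), and at day 9, 8 rose and 7 fell (19.0% against 7.87%). Against day 9, 40 were higher and 9 lower in ESC (62.0% against 32.9%), whereas against MEF 15 were higher and 37 lower (65.8% against 46.1%). Nodal was called higher at day 3, and 2 genes that act with it were called higher first at day 6. The co-receptor Tdgf1 (Cripto) was at 0.148 and 0.152 CPM in MEF, 0.269 and 0.148 at day 3, 27.9 and 27.5 at day 6, 99.6 and 98.9 at day 9, and 827 and 847 in ESC. Foxh1, the DNA-binding partner of Smad2, was at or below 0.148 CPM in MEF and at day 3, 3.65 and 4.6 at day 6, 12.9 and 12.8 at day 9, and 24.3 and 24.2 in ESC. The related ligand Gdf3 had 0 reads in MEF and was at 2.88 and 2.36 CPM at day 3, 19.4 and 21.6 at day 9, and 95.1 and 96.3 in ESC. These genes and Nodal were thus present at day 9 at a fraction of their ESC level, and Foxh1 differed between ESC and day 9 by 0.92, under the fold minimum. Of 6 tested Nodal and activin target genes, none rose at any step of induction, 3 fell at day 3, 2 at day 6 and 1 at day 9, and 6 were higher in ESC than at day 9.

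Of 15 TGF-beta target genes, 12 fell and 1 rose at day 3, 11 fell at day 6, and 12 were higher in ESC than at day 9. The median log2 fold changes were -2.49, -2.97 and 2.68, against 0.08, 0.03 and 0.0 for all genes. The shares called were 86.7%, 73.3% and 80.0%, against 29.1%, 19.5% and 32.9% of all genes. Cnn1 (calponin), Col1a1 and Col1a2 fell at both steps, and the collagens are also in the fibroblast marker list, of which 11 of 14 genes fell at day 3 and 14 of 14 at day 6. The part of fewer fibroblasts in these counts was not tested.

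Of 8 BMP target genes, 2 rose and 2 fell at day 3, and 6 fell at day 6. That is 50.0% and 75.0% called, against 29.1% and 19.5% of all genes. Hey1, a Notch and BMP target, was at 10.7 and 10.9 CPM in MEF, 24.8 and 23.6 at day 3, and 3.44 and 3.21 at day 6. Atoh8 averaged 28.0 CPM in MEF, 52.5 at day 3 and 6.36 at day 6, with a log2 fold change at day 3 of 0.91, under the minimum. Tbx3 and Klf2, also pluripotency factors, were higher in ESC than at day 9 by 5.71 and 3.42. Klf2 was at 72.5% of its MEF level in ESC and at 6.78% at day 9.

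Among genes that activate ligands, 3 of 9 fell and 1 rose at day 3, 5 fell and 1 rose at day 6, and 1 fell and 3 rose at day 9. That is 44.4%, 66.7% and 44.4% called, against 29.1%, 19.5% and 7.87% of all genes. Lrrc32 (GARP), which holds latent TGF-beta at the cell surface, was at 156 and 148 CPM in MEF, 1.59 and 1.39 at day 3, and 70.2 and 77.9 in ESC. Thbs1 (thrombospondin) fell at day 3 and day 6, by 2.25 and 4.32 on the log2 scale. Pcsk6, a proprotein convertase that processes Nodal and BMP precursors, rose at day 3 by 2.97 (SE 0.08, edgeR adjusted p 2.8e-13) and fell at day 6, and Furin was called only as lower in ESC than in MEF. Of 10 tested further secreted antagonists and modulators, 5 fell and 2 rose at day 3, and 7 fell at day 6. That is 70.0% called at each of these steps, against 29.1% and 19.5% of all genes. Sost (sclerostin) was at 32.5 and 33.9 CPM at day 3 and at or below 0.122 CPM in MEF. Of the 12 nuclear partners and regulators of Smad turnover, 2 rose at day 3 (Tgif2 and Usp9x). At day 6 and day 9, 1 rose at each step, and none fell at any step of induction. The shares called were 16.7%, 8.33% and 8.33%, against 29.1%, 19.5% and 7.87% of all genes.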

How the data were processed

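Per the submitters' processing notes, transcripts were quantified with salmon 0.8.2 and the build named is mm10. The libraries were made with a stranded mRNA kit, per the labels' protocols. The deposited files give, per the file headers, an estimated count (expected count) and a TPM for each of 109617 transcripts in each of 10 libraries. The deposited transcripts were summed here to 45706 genes, and the estimated counts were rounded to whole numbers. Effective lengths were the same in all files. Coordinates and transcript sequences come from GENCODE M21 (GRCm38).

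Counts were fitted with edgeR 4.0.16 in R 4.3.3, by the quasi-likelihood test over all 10 libraries with a mean per group and TMM scaling. Genes passed filterByExpr with a minimum count of 10 and a minimum total of 15, which kept 20165. P-values were adjusted over these by Benjamini-Hochberg, and calls needed an adjusted p under 0.05 and a log2 fold change of at least 1. CPM values use TMM-scaled library sizes. An exact permutation test of 2 libraries against 2 cannot go below 0.333, so no single-gene permutation test was used. edgeR's common estimate of the coefficient of variation between replicates was 3.75%. Replicates differed beyond sampling noise, with a chi-square per degree of freedom of 2.91 to 5.42. The labels give 1 batch for all libraries. Sampling error and bounds cover counting only.

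Alternatives were DESeq2 1.42.0, library-size scaling, no filter, a filter of 10 CPM in 2 libraries, a fit of the 2 groups compared, limma 3.58.1 on log2 TPM with a pseudocount of 1 or 0.1, calls without the fold minimum, a replicate block and each library left out. The scripts were tested on simulated data. The members and gene lists were chosen with earlier results of these data known. Values per library are given for members called at least once and at 5 TPM or more in a group, and other genes are named where they reach 5 TPM, up to 4 a list by size of change. Smad9, Acvr2b, Tgfbr3, Eng, Bmp2, Bmp7, Bmp8b and Nog fall outside that rule and were singled out after their values were seen. A few genes of the lists and 1 sequence comparison are not reported here.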

Additional observations from a re-analysis of the deposited data

How the results depend on the processing

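Of the 128 called results of members, 50 lost the call under at least 1 alternative, 27 of them only with limma on log2(TPM + 1), 8 uncalled results gained one, and no called result changed sign. Without the fold minimum the counts rose to 16 higher and 29 lower at day 3, 10 and 33 at day 6, 11 and 23 at day 9, and for ESC against day 9 to 22 lower. With limma on log2(TPM + 1), which understates changes of low genes, they were 10 lower at day 3, 1 higher at day 6, 1 higher and 2 lower at day 9, and 4 lower for ESC against day 9. With log2(TPM + 0.1) they were 2 higher at day 6 and 7 lower for ESC against day 9. Under the stricter filter, which tests fewer genes, they were 2 higher at day 6, 1 higher at day 9 and 4 higher in ESC than in MEF. Leaving out each library in turn gave 8 to 9 higher and 15 to 18 lower at day 3, and 20 to 21 lower at day 6. The count higher at day 6 was 3 to 4, with 3 without day 3 replicate 2. At day 9 it was 2 to 3 higher and 5 lower. DESeq2 gave 7 higher and 19 lower at day 3. Without TMM the median of all genes shifted from 0.08 to 0.29 at day 3 and from 0.1 to 0.44 between ESC and MEF. Same-numbered libraries did not deviate together (mean correlation 1e-04, range -0.0205 to 0.0222). With a replicate block the counts were 10 higher and 16 lower at day 3, 5 and 20 at day 6, 3 and 5 at day 9, 18 and 11 for ESC against day 9, and 7 and 32 for ESC against MEF. Depth limits Bmp5, Bmp7, Gdf6 and Gdf10, which were under 1 TPM in every group.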

Other observations

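Within some members the share of estimated reads assigned to single transcripts differed between groups, at low totals. The protein-coding transcript Ltbp2-001 took 76.8% of Ltbp2 reads in MEF and 74.7% in ESC, but 0.0% at day 6, where Ltbp2-201 took 60.8%. The noncoding transcript Fstl3-002 took 5.67% of Fstl3 reads in MEF, 41.2% at day 6 and 1.75% in ESC. These shares are estimates with no test.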
